A study of Mus musculus with 16 samples.

Results

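A set of 10 genes that mark endothelial junctions and endothelial identity was followed through mouse hearts. The genes were chosen by name: the junction genes Cdh5, Pecam1, Esam and Cldn5, the receptor genes Kdr, Tie1 and Tek, the genes of the secreted proteins Vwf and Egfl7, and Emcn. They are 10 of the 30153 genes in the deposited table, and all 10 were among the 11415 genes that reached 1 TPM in 3 or more libraries. TPM are transcript abundances corrected for length and library total. The study profiled RNA from 16 mouse hearts by sequencing. Adult C57 mice gave 3 hearts, aged Hap-I mice gave 4, and Hap-I mice fed a western diet gave 5 aged and 4 adult hearts. Hap-I names haplotype I of the human angiotensin type 1 receptor, which these mice overexpress on a C57/BL6 background. The series design lists the adult Hap-I group without a diet, while its 4 sample labels name the western diet, and groups here follow those labels. The labels give no transgene promoter, sex, age in months, diet composition or batch, and transcripts of the transgene were not analysed here. No group of adult Hap-I mice without western diet and no aged or western-diet C57 group was analysed here, so genotype, age and diet cannot be told apart in several comparisons.

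Endothelial cells line the vessels of the heart and hold to one another through adherens and tight junctions. VE-cadherin, the product of Cdh5, is the adherens junction protein of these cells, and claudin-5, the product of Cldn5, seals their tight junctions. Pecam1 and Esam encode adhesion molecules of the immunoglobulin family that sit at the same cell contacts. Kdr encodes VEGF receptor 2, the main signalling receptor for VEGF-A, and Tek encodes Tie2, the receptor for angiopoietins, with which the related Tie1 pairs. Vwf encodes von Willebrand factor, which is stored in Weibel-Palade bodies, Egfl7 encodes a secreted protein of the vessel wall and hosts a microRNA gene, and Emcn encodes a surface sialomucin of capillary and venous endothelium.

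The sequences just upstream of 4 of these genes are shown because the genes behaved differently across the hearts: Kdr and Tek varied together, Cldn5 differed between groups, and Emcn varied least. They come from RefSeq on GRCm38.p6, are written 5′ to 3′ on the strand of the gene and end at the base before the first annotated transcript. Capitals mark AGGAAG or its reverse complement CTTCCT, letters found in binding sites of ETS factors, a family active in endothelial cells.
Cldn5: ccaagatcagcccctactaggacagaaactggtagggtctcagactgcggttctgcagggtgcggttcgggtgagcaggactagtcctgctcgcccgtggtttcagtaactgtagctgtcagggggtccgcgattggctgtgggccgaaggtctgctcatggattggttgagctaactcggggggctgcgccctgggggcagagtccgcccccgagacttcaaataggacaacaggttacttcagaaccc
Kdr: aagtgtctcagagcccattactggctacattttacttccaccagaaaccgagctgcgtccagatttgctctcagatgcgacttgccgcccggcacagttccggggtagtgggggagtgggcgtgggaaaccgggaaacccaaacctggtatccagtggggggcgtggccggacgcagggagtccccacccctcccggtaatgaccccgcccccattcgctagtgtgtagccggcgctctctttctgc
Tek: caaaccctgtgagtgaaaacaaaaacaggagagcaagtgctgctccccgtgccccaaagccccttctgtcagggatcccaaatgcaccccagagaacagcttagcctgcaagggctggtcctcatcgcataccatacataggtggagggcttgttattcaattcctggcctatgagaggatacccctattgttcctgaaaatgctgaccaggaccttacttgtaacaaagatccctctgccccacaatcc
Emcn: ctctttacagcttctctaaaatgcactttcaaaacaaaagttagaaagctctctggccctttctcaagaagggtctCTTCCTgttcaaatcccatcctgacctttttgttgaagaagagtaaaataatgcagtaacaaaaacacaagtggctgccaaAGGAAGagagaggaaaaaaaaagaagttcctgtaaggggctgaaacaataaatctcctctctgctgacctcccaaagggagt
The Cldn5 stretch is chr16:18776597-18776846 on the plus strand, the Kdr stretch is chr5:75978459-75978705 on the minus strand, the Tek stretch is chr4:94739039-94739288 on the plus strand, and the Emcn stretch is chr3:137340828-137341066 on the plus strand. Emcn held 2 such matches, on opposite strands and not overlapping, and the other 3 stretches held 0. Of 32851 promoter windows of 250 bases, 29.5% held at least 1. None of the 4 stretches held AGATAA (9.99% of the windows), ACAATG (10.7%) or GTAAACA (3.17%) on either strand, letters found in binding sites of GATA, SOX and forkhead factors. GC content was 59.6% in Cldn5, 61.5% in Kdr, 51.2% in Tek and 40.6% in Emcn. Pecam1, Cdh5, Vwf and Esam had no entry in the promoter table. The Tie1 entry held 38 bases upstream of the first annotated transcript, with 1 match to CTTCCT, and the Egfl7 entries held 0, so neither is printed.

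Levels are given as scaled TPM, the deposited TPM divided by a size factor for each library, and can be set side by side between genes because they are per length. Over the 16 hearts, Egfl7 had the highest mean at 69.8 ± 25.1 (SD) scaled TPM and Tek the lowest at 9.85 ± 2.51. Between them came Pecam1 at 36.4 ± 9.15, Cdh5 at 30.1 ± 10.5, Esam at 28.8 ± 5.34, Emcn at 27.1 ± 4 and Kdr at 23.5 ± 9.58. Tie1 followed at 16.1 ± 3.49, Vwf at 11.5 ± 4.69 and Cldn5 at 10.5 ± 3.94. Cdh5, Esam and Emcn lay within each other's spread, as did Vwf, Cldn5 and Tek. Kdr spanned the widest range, from 9.18 to 41.2 scaled TPM, a ratio of 4.49, and Emcn the narrowest, from 19.3 to 36.9, a ratio of 1.92. In whole heart tissue, fewer endothelial cells and less RNA of a gene per cell cannot be told apart. Cardiac markers were high throughout: the 10 ventricular cardiomyocyte markers summed to between 35900 and 52000 scaled TPM in each heart, and all 18 other pan-endothelial genes examined passed the filter on low values.

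**Figure D1:**
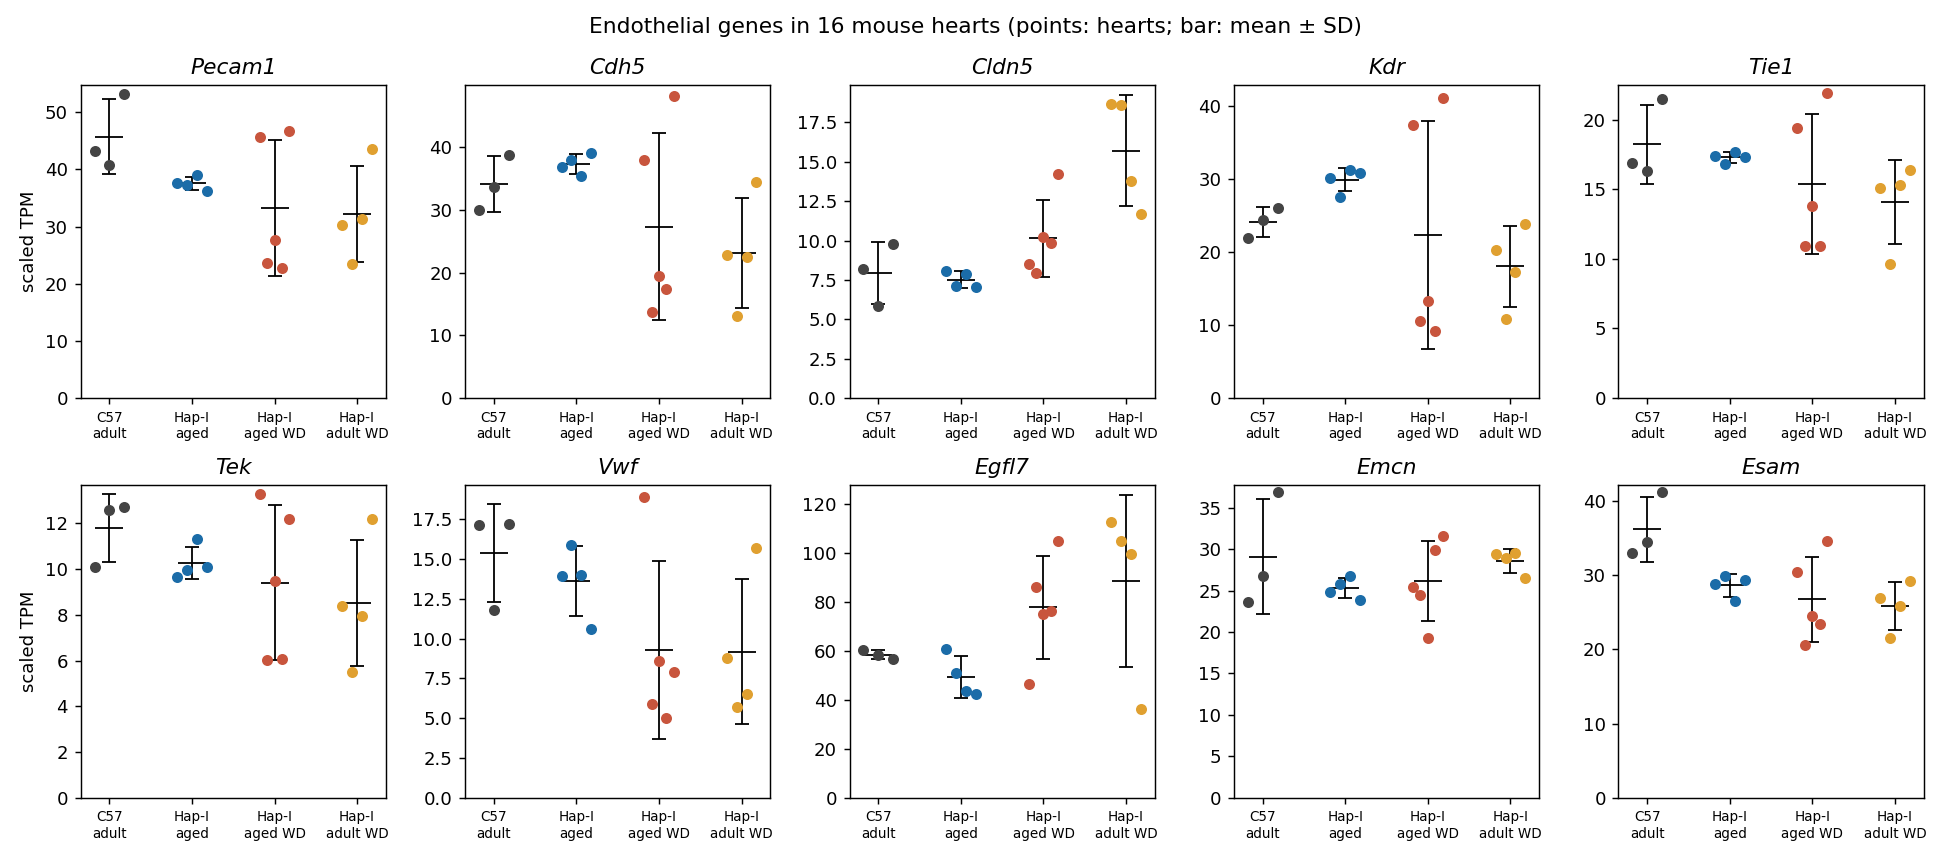
Scaled TPM of the 10 endothelial genes (y axes, each from 0) in the 4 groups (x axes). Points are hearts and black bars are the mean ± SD of 3 C57, 4 aged Hap-I, 5 aged western-diet (WD) Hap-I and 4 adult western-diet Hap-I hearts; Cldn5 is highest in the adult western-diet hearts, at 11.7 to 18.7, and Kdr splits the aged western-diet hearts into values of 9.18 to 13.3 and of 37.4 and 41.2.

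Cldn5 was the gene that differed most between groups. Its levels in adult western-diet Hap-I hearts were 18.7, 18.6, 13.8 and 11.7 scaled TPM (replicates 1 to 4), against 8.19, 5.85 and 9.75 in C57 hearts. Aged Hap-I hearts held 8.07, 7.11, 7.87 and 7.05, and aged western-diet Hap-I hearts held 8.48, 7.94, 10.2, 9.84 and 14.2. All 4 adult western-diet hearts were above all C57 and all aged Hap-I hearts, and aged western-diet replicate 5 lay above 2 of them. Cldn5 rose in adult western-diet Hap-I against C57 by 0.90 ± 0.19 (log2 fold change ± SE, 1.87-fold, adjusted p = 0.0199). It was lower in aged Hap-I than in adult western-diet Hap-I by 1.93-fold (log2 fold change -0.95 ± 0.18, adjusted p = 0.0162). Both folds are of scaled TPM + 1, here and below, and understate changes at low levels. The 2 comparisons share the adult western-diet hearts, and in each a second factor differs besides the named one: diet with genotype in the first, diet with age in the second. Over the 4 groups at once, Cldn5 was the only one of the 10 genes to pass the F test of the model (adjusted p = 0.00766), 1 of 10 against 18.3% of all genes.

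With western diet in both groups, Cldn5 was 10.1 ± 2.46 (SD, n = 5) scaled TPM in aged and 15.7 ± 3.52 (n = 4) in adult Hap-I hearts, a log2 difference of -0.58 ± 0.17 that did not pass (adjusted p = 0.0715). Both Cldn5 calls were close to the threshold. With a covariate for the absence of Y-linked transcripts, the adjusted p was 0.0643 against C57 and 0.0528 against aged Hap-I, and without any scaling it was 0.107 and 0.0954. Y-linked transcripts were absent from replicates 1 and 2 of the adult western-diet group, which had the highest Cldn5, and in the 11 libraries with such transcripts the log2 differences were 0.64 and -0.68 (adjusted p = 0.137 and 0.219). Without adult western-diet replicate 2, the adjusted p was 0.0571 and 0.0556. The first call was also lost without C57 replicate 1 (0.0704) or 2 (0.0608), and the second without aged Hap-I replicate 3 (0.0505) or 4 (0.0594) or adult western-diet replicate 1 (0.0562). The difference kept its direction in each of the 35 alternatives and omissions for both comparisons. Cldn5 has 1 annotated transcript of 1416 bases on chromosome 16 (18776847 to 18778262, plus strand, GRCm38), and none of its 31-base words occurs in another gene.

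Esam was lower in Hap-I than in C57 hearts. C57 hearts held 33, 34.5 and 41.2 scaled TPM. Aged Hap-I hearts held 28.8, 29.9, 26.5 and 29.4, adult western-diet Hap-I hearts 27, 21.5, 25.9 and 29.2, and aged western-diet Hap-I hearts 30.5, 20.6, 24.5, 23.5 and 34.7. Of the 13 Hap-I hearts, only aged western-diet replicate 5 reached the C57 range. Esam fell in aged western-diet Hap-I against C57 by 0.44 ± 0.14 on the log2 scale (1.36-fold, adjusted p = 0.0397), and in the mean of the 3 Hap-I groups, each given equal weight, against C57 by 0.41 ± 0.13 (adjusted p = 0.0385). The differences were -0.47 ± 0.15 in adult western-diet Hap-I (adjusted p = 0.0906) and -0.32 ± 0.15 in aged Hap-I (adjusted p = 0.176), and neither passed. In these comparisons genotype goes with age, diet or both. Neither Esam call held with the Y-linked covariate (adjusted p = 0.187 and 0.109), with a correction for transcript length (0.16 and 0.132), with a covariate of atrial markers (0.19 and 0.136), or without C57 replicate 3 (0.175 and 0.222). Of 16 omissions of 1 heart, 7 kept the first call and 8 the second. Both were also lost without C57 replicate 1 or 2, aged Hap-I replicate 1 or 4, or replicate 3 of either western-diet group; the first alone was lost without aged western-diet replicate 2 or 4, and the second alone without aged Hap-I replicate 3.

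The other junction genes did not pass in any of the 7 comparisons. Pecam1 was 45.7 ± 6.59 (SD, n = 3) scaled TPM in C57, 37.6 ± 1.21 (n = 4) in aged Hap-I, 33.3 ± 11.9 (n = 5) in aged western-diet Hap-I and 32.1 ± 8.41 (n = 4) in adult western-diet Hap-I hearts. Its difference between adult western-diet Hap-I and C57 was -0.52 ± 0.24 on the log2 scale (adjusted p = 0.236), with a 95% interval from -1.03 to -0.01. Cdh5 was at 36.8, 38, 35.4 and 39 scaled TPM in aged Hap-I hearts and at 22.8, 13, 22.5 and 34.4 in adult western-diet Hap-I hearts. These groups did not overlap, yet the log2 difference of 0.74 ± 0.33 did not pass (adjusted p = 0.206). Its levels in aged western-diet hearts were 37.9, 13.7, 19.5, 17.3 and 48.1, which reached both below and above the C57 values of 30, 33.6 and 38.8. Both the highest Cdh5 of all hearts and a value near the lowest were in that group.

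Among the receptor genes, Kdr split the aged western-diet group most widely. Kdr was at 37.4, 10.6, 13.3, 9.18 and 41.2 scaled TPM in these 5 hearts, against 30.2, 27.6, 31.2 and 30.8 in aged Hap-I hearts without the diet. Its C57 levels were 22, 24.4 and 26, and its adult western-diet levels 20.3, 10.8, 17.3 and 23.8. Replicates 1 and 5 of the aged western-diet group were above every other heart, and replicate 4 below every other heart. The diet difference in aged Hap-I was -0.67 ± 0.37 on the log2 scale (adjusted p = 0.385), with a 95% interval from -1.45 to 0.1. Tie1 lay between 9.65 and 21.9 and Tek between 5.52 and 13.3 over all hearts, each lowest in adult western-diet replicate 2. In aged Hap-I hearts they were at 17.3 ± 0.397 and 10.3 ± 0.735 (SD, n = 4), and in aged western-diet hearts at 15.4 ± 5.03 and 9.42 ± 3.39 (n = 5). Their diet differences of -0.21 ± 0.19 and -0.18 ± 0.22 on the log2 scale did not pass.

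Vwf and Egfl7 went in opposite directions in single hearts. Vwf was at 17.1, 11.8 and 17.2 scaled TPM in C57 and at 13.9, 15.9, 14 and 10.6 in aged Hap-I hearts. It was at 18.9, 5.88, 8.59, 5 and 7.9 in aged western-diet and at 8.79, 5.73, 6.51 and 15.7 in adult western-diet hearts. In each western-diet group 1 heart (aged replicate 1, adult replicate 4) was within or above the C57 range and the others were below the lowest C57 heart. The Vwf difference of aged western-diet Hap-I from C57 was -0.80 ± 0.33 on the log2 scale (adjusted p = 0.1), and of adult western-diet Hap-I from C57 -0.76 ± 0.35 (adjusted p = 0.234).

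Egfl7 had its lowest western-diet values in the same 2 hearts: 46.5 in aged replicate 1, against 86.2, 75.3, 76.5 and 105 in the others, and 36.5 in adult replicate 4, against 113, 105 and 99.8. C57 hearts held 60.5, 58.5 and 56.8 and aged Hap-I hearts 60.9, 51, 43.5 and 42.4 scaled TPM. The 7 other western-diet hearts were above every heart of the groups without the diet, but the 2 low hearts were set aside by their Egfl7 values. The separation is thus a description. With all hearts, Egfl7 overlapped between groups and did not pass in any of the 7 comparisons. Its diet difference in aged Hap-I was 0.61 ± 0.28 on the log2 scale (adjusted p = 0.303). Without adult western-diet replicate 4, the heart lowest in Egfl7, it passed in adult western-diet Hap-I against C57 (0.84, adjusted p = 0.0427). Aged Hap-I was then lower than adult western-diet Hap-I (-1.10, adjusted p = 0.0135). Each call came in only 1 of 16 omissions of a heart. Egfl7 has 19 annotated transcripts, 6.62% of its 31-base words occur in other genes, and it overlaps exons of Agpat2 on the opposite strand by 64 bases, so its level is the least certain of the 10. Whether the counting used strand is not given in the sources used here.

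Emcn stayed nearly level. Its means were 29.1 ± 6.96 (SD, n = 3) scaled TPM in C57, 25.3 ± 1.27 (n = 4) in aged Hap-I, 26.1 ± 4.87 (n = 5) in aged western-diet Hap-I and 28.6 ± 1.38 (n = 4) in adult western-diet Hap-I hearts. The diet difference in aged Hap-I was 0.03 ± 0.13 on the log2 scale, with a 95% interval from -0.26 to 0.31 (adjusted p = 0.95). The interval of Kdr in the same comparison, from -1.45 to 0.1, was far wider.

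Over the 7 comparisons, 0 or 1 of the 10 genes was called in each, counts too small to set the genes apart from all genes. Diet in aged Hap-I called 0 of 10 at the adjusted threshold, where 0.166% of all genes were called, and 2 of 10 (Cldn5 and Egfl7) had an unadjusted p under 0.05, as did 15.9% of all genes. Age on western diet also called 0 of 10, against 2.39% of all genes, with 1 (Cldn5) under 0.05 unadjusted, against 19.7%. Aged Hap-I against adult western-diet Hap-I called 1 of 10 against 2.14%, and aged Hap-I against C57 called 0 of 10 against 11.2%, with 1 (Esam) under 0.05 unadjusted, against 27.9%. Against C57, adult western-diet Hap-I called 1 of 10 against 3.45% and aged western-diet Hap-I 1 of 10 against 21.9%. The mean of the 3 Hap-I groups against C57 called 1 of 10 against 15.7%. Unadjusted, 3 of 10 were under 0.05 between aged Hap-I without the diet and adult western-diet Hap-I (21.5% of all genes). The counts against C57 were 4 in adult western-diet Hap-I (20.4%), 3 in aged western-diet Hap-I (35.5%) and 3 in the mean of the Hap-I groups (31.3%). The members' median log2 fold changes were -0.20, 0.02, 0.27, -0.17, -0.46, -0.36 and -0.27 in the same order of comparisons, and those of all genes lay between -0.01 and 0.01. In each of the 4 comparisons with C57, which share the same 3 hearts, 8 of 10 genes had a negative difference.

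Between aged Hap-I without the diet and adult western-diet Hap-I, groups did not overlap for 4 genes (Cdh5, Cldn5, Kdr and Tie1). In that comparison 16% of all genes had no overlap. Groups did not overlap for 3 (Pecam1, Kdr and Esam) between aged Hap-I and C57, against 34.1%. For 2 (Cldn5 and Esam) they did not overlap between adult western-diet Hap-I and C57, against 18%. In the other 4 comparisons 0 of 10 genes did so, against 7.14% of all genes for diet, 6.31% for age, 23.4% between aged western-diet Hap-I and C57 and 7.75% between all Hap-I hearts and C57. When libraries were weighted by their fit to the model, 5 of 10 genes passed between aged Hap-I without the diet and adult western-diet Hap-I. Cdh5, Kdr and Vwf were higher in the aged hearts and Cldn5 and Egfl7 lower, and 26.7% of all genes passed. With the same weights 5 passed in adult western-diet Hap-I against C57 (Cldn5 and Egfl7 higher, Pecam1, Vwf and Esam lower), where 21.4% of all genes did. In a model of the 2 groups alone, aged Hap-I against C57 called 2 genes, Kdr higher (adjusted p = 0.0302) and Esam lower (0.0369), and 21.3% of all genes.

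**Figure D2:**
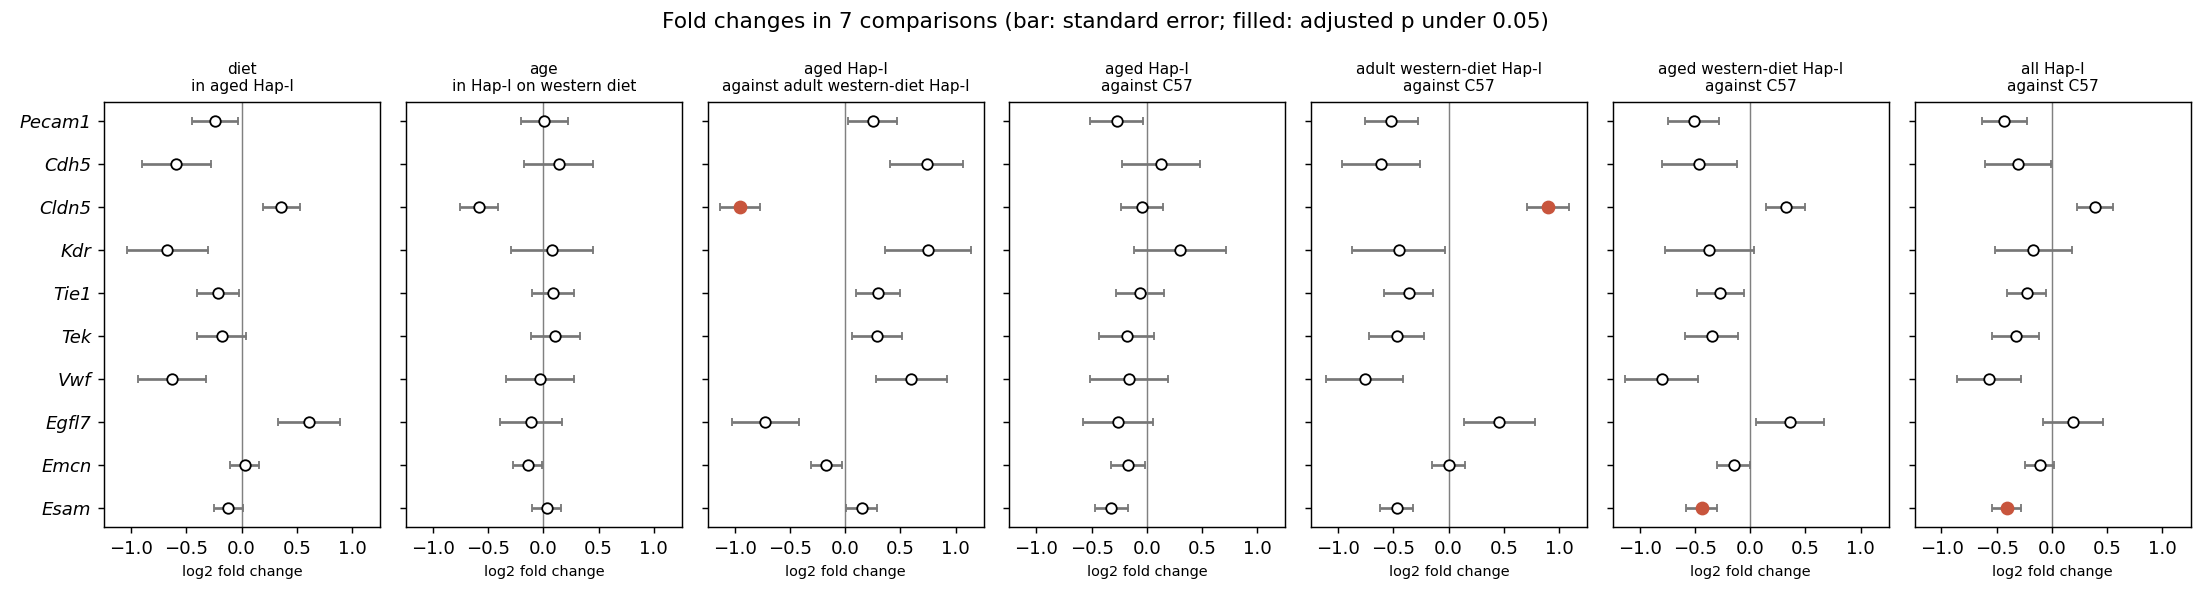
Log2 fold changes (x axes) of the 10 genes (y axis) in the 7 comparisons, 1 panel each; bars are standard errors of the model and filled points passed an adjusted p of 0.05. Filled points are Cldn5 (-0.95 and 0.90) and Esam (-0.44 and -0.41); the error bars of Kdr and Cdh5 are the longest.

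The hearts of the western-diet groups differed among themselves more than the other hearts did. Only these groups held both hearts with and hearts without Y-linked transcripts, and the part of this in the spread was not tested. The median SD of the 10 genes' log2 levels was 0.46 in aged western-diet and 0.39 in adult western-diet Hap-I hearts, against 0.19 in C57 and 0.07 in aged Hap-I hearts. Over all genes the median SD was 0.20, 0.18, 0.14 and 0.12 in the same order. All 10 genes in aged western-diet hearts and 8 of 10 in adult western-diet hearts exceeded that all-gene median, as did 8 in C57 and 2 in aged Hap-I hearts. In aged Hap-I hearts the coefficient of variation was 2.29% for Tie1, 3.21% for Pecam1 and 5.3% for Kdr. In aged western-diet hearts it was 32.7%, 35.7% and 69.9% for the same genes.

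Within groups, 6 of the genes rose and fell together from heart to heart. After removal of group means, the 15 pairs among Pecam1, Cdh5, Kdr, Tie1, Tek and Esam had Pearson r of 0.84 to 0.96 over 16 hearts; these 6 were picked after the values were seen, and the range describes them. Of all 45 pairs among the 10 genes, 17 had an adjusted p under 0.05 by Pearson r in a permutation test within groups (100000 permutations, two-sided), and 16 by Spearman rho. Pairs of other genes were not tested this way, so the count cannot set the 10 genes apart from all genes. The closest pair was Cdh5 with Esam (r = 0.96, rho = 0.96, adjusted permutation p = 0.00045 and 0.000225). The raw p of that pair, 1e-05, is the smallest these permutations can give, and r was 0.92 without the 2 hearts farthest from the median of Cdh5. Vwf correlated with these 6 genes at r = 0.59 to 0.78, and its pairs with Pecam1 (adjusted permutation p = 0.0169) and Tek (0.0202) were the 2 others that passed by r.

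Emcn, Cldn5 and Egfl7 stood outside this pattern. Their r with the 6 genes was 0.04 to 0.41 for Emcn, -0.07 to 0.27 for Cldn5 and -0.55 to -0.24 for Egfl7. Egfl7 and Cldn5 correlated at r = 0.60 (rho = 0.56, adjusted permutation p = 0.0537 and 0.0625), and at 0.38 without the 2 hearts farthest from the median. For the pairs among the 6, r was 0.87 to 0.98 after a correction for transcript length and 0.75 to 0.95 in the 11 libraries with Y-linked transcripts. It was 0.90 to 0.99 over the 9 western-diet hearts and 0.26 to 0.97 over the 7 hearts of the other groups. These values depended on the processing for Emcn and Cldn5. Without scaling, r with the 6 genes was 0.74 to 0.81 for Emcn and 0.50 to 0.62 for Cldn5, and with the length correction it was 0.32 to 0.53 for Cldn5.

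**Figure D3:**
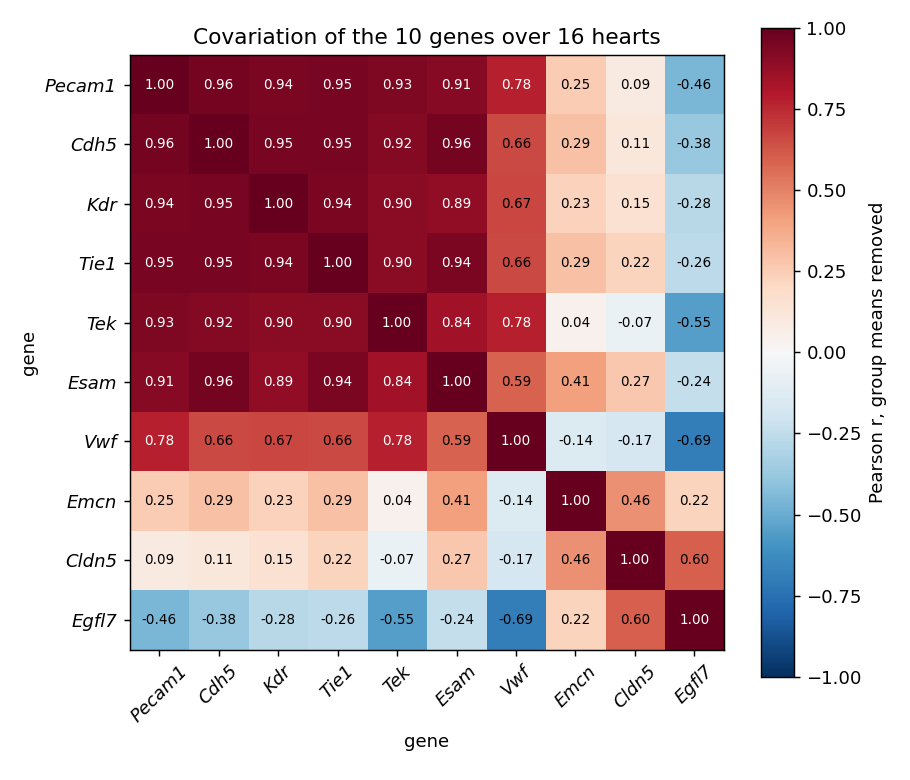
Pearson r between the 10 genes (both axes) over 16 hearts, on log2 levels with group means removed; red is positive and blue negative. The 6 genes at the upper left reach 0.84 to 0.96 with one another, Vwf follows, and Egfl7 is negative with all of them.

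Per heart, the low values fell on replicates 2, 3 and 4 of the aged western-diet group and on replicate 2 of the adult western-diet group. Cdh5 deviated there from the mean of all hearts by -0.98, -0.51, -0.67 and -1.05 on the log2 scale, and Kdr by -0.96, -0.66, -1.15 and -0.94. The means of the 18 other pan-endothelial genes deviated by -0.35, -0.20, -0.36 and -0.27 in these 4 hearts, and arterial markers by -0.38, -0.24, -0.48 and -0.47. Capillary markers deviated less, by -0.22, -0.21, 0.09 and -0.17, and endothelial transcription factors by 0.04, -0.05, -0.13 and 0.10. Fibroblast markers moved with them, at -0.64, -0.19, -0.69 and -0.46, and venous markers at -0.39, -0.19, -0.66 and -0.29. Ventricular cardiomyocyte markers stayed within -0.10 and 0.03 in the same hearts. Aged western-diet replicates 1 and 5 were the opposite case, with Cdh5 at 0.42 and 0.75 and Kdr at 0.77 and 0.90. Arterial markers were there at 0.08 and 0.41 and fibroblast markers at 0.24 and 0.27. Pericyte and smooth muscle markers were at -0.26 and 0.07 in these hearts, and at -0.28, -0.30, -0.58 and -0.21 in the 4 low hearts.

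Technical properties of these hearts are given beside the values. Size factors were lowest in adult western-diet replicate 2 (0.678) and aged western-diet replicate 4 (0.775), but aged western-diet replicate 3, also low in Kdr, had 1.229. Replicate 5 of that group, high in Kdr, had 0.875. Y-linked transcripts were absent from aged western-diet replicates 1 (high in Kdr), 2 and 3 (low) and present in 4 (low) and 5 (high). They were also absent from adult western-diet replicates 1 and 2, and present in all C57 and aged Hap-I hearts. The rank correlation, across genes, of a library's deviations with transcript length ranged from -0.46 to 0.50; it was -0.46 in adult western-diet replicate 2 and 0.41 in aged western-diet replicate 3. The part of these properties, of the fibroblast share and of the mitochondrially encoded share of TPM, which ranged from 31.1% to 46.1%, in the low values was not tested.

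**Figure D4:**
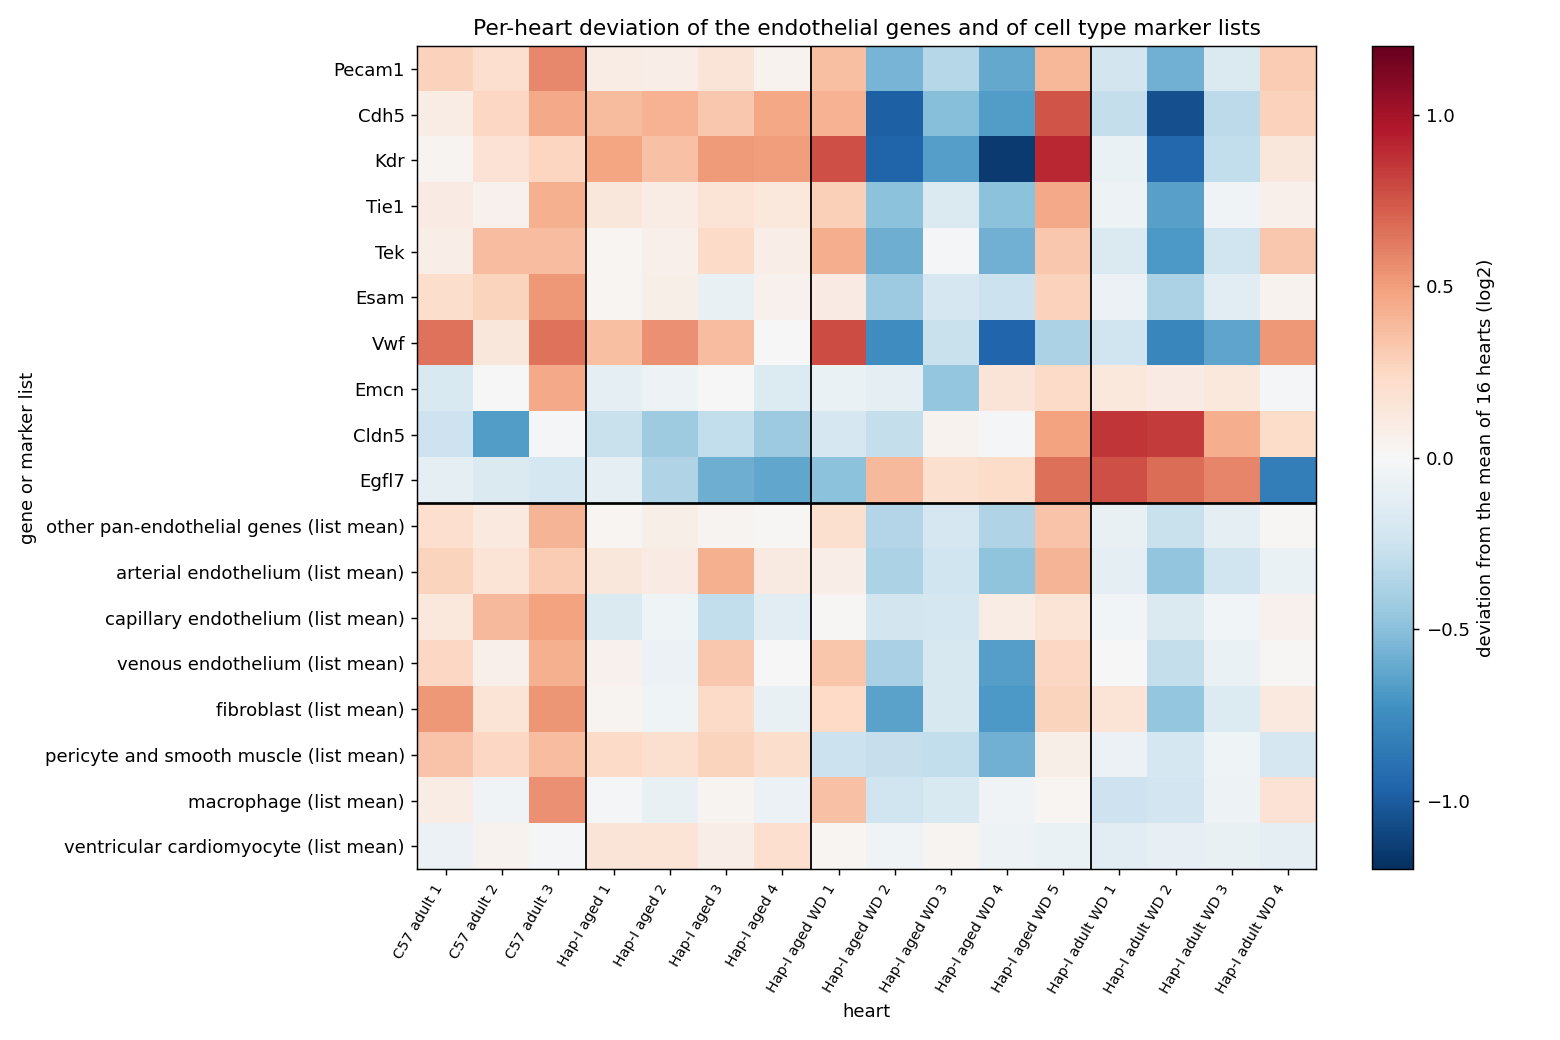
Deviation of each heart (x axis, in 4 groups divided by lines) from the mean of 16 hearts, on the log2 scale, for the 10 genes (above the line) and the means of cell type marker lists (below); red is higher and blue lower. In aged western-diet replicates 2 and 4 and adult western-diet replicate 2, Cdh5 and Kdr are lower by 0.67 to 1.15 and fibroblast markers by 0.46 to 0.69, while ventricular cardiomyocyte markers lie near 0.

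The other genes whose pattern was most like the mean of the 10 were ranked over all genes kept. Likeness was Pearson r over 16 hearts, group means removed, to the mean of the 10 standardised genes, and is a description. Scaf4 came first with r = 0.97, and among the genes that followed were Lama4 at 0.964, Ssc5d at 0.96, Pcdh1 at 0.959, Rrbp1 at 0.958, Cavin1 at 0.956 and F11r at 0.955. Lama4 encodes a laminin chain of vascular basement membranes, Cavin1 a coat protein of caveolae, and F11r the junctional adhesion molecule JAM-A. Lama4 ranged from 5.18 to 25.4 scaled TPM over the hearts. Among the 10, Tie1 and Esam were closest to the mean (r = 0.96 each), and Egfl7 was at -0.15. These 10 values share the genes that form the mean. Even so, by this r Tie1 ranked 4, Esam 7, Cdh5 24, Kdr 26, Pecam1 34 and Tek 275 among all genes kept. Many genes outside the 10 thus followed the mean as closely as these members. Others went the opposite way, the most extreme being Mff at -0.936.

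Ligands and partners of these receptors were examined from named lists. In the list of 9 VEGF ligands and receptors, Vegfa, the main ligand of the Kdr product, rose in aged Hap-I (0.59 ± 0.18 on the log2 scale, adjusted p = 0.0469) and aged western-diet Hap-I (1.05 ± 0.17, adjusted p = 0.00111) against C57. Pgf, the placental growth factor, which binds the related receptor Flt1, fell in all 4 comparisons with C57, by 0.78 to 1.12. Vegfa averaged 49.6 scaled TPM in C57, 75.3 in aged Hap-I, 106 in aged western-diet Hap-I and 73.1 in adult western-diet Hap-I hearts. Vegfa and Pgf were the only 2 of these 9 genes to pass in any of the 7 comparisons. Against C57, 11.2% of all genes were called in aged, 3.45% in adult western-diet and 21.9% in aged western-diet Hap-I. In the mean of the Hap-I groups 15.7% were called, and the counts are too small to set the list apart from all genes. Flt1, at 15.7, 14.5, 12.5 and 8.49 in the same order of groups, did not pass against C57 in adult western-diet Hap-I (-0.88 ± 0.33, adjusted p = 0.146). Nrp1, a co-receptor of Kdr, was at 17.9, 28.1, 20.3 and 14.7 and did not pass either.

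Of the 6 listed partners of Tie1 and Tek, 5 passed the filter and 0 were called by limma in any comparison, while 3 had an unadjusted p under 0.05 in at least 1. In single comparisons 0.166% to 21.9% of all genes were called, and 15.9% to 35.5% had an unadjusted p under 0.05. Angptl1 had the smallest p of the list, with diet in aged Hap-I (-0.46 ± 0.12 on the log2 scale, adjusted p = 0.0893). It averaged 1.3 scaled TPM in aged Hap-I and 0.686 in aged western-diet Hap-I hearts. Angpt1, the activating ligand of Tie2, averaged 7.81 scaled TPM in C57 and 5.22 in adult western-diet Hap-I hearts (-0.48 ± 0.24 on the log2 scale, adjusted p = 0.276). Ptprb, the phosphatase VE-PTP that acts on Tie2 and VE-cadherin, was at 6.18 in C57 and 8.75 in aged Hap-I hearts (0.45 ± 0.29, adjusted p = 0.326). Of the 12 adherens junction partners, 1 was called, Plekha7, lower in aged western-diet Hap-I than in C57 (-1.03 ± 0.35, adjusted p = 0.049), where 9.57% of all genes fell. The catenin gene Ctnnb1, whose product binds VE-cadherin, lay between 47.1 and 85.1 scaled TPM over all hearts and did not pass.

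Among partners of the tight junction and of cell contacts, Icam2 and Cldn15 fell in each Hap-I group against C57. Of 12 listed genes 9 passed the filter. In aged western-diet Hap-I against C57 4 fell, where 9.57% of all genes fell. In aged Hap-I and in adult western-diet Hap-I 2 fell, where 4.06% and 1.5% of all genes fell. In the mean of the Hap-I groups 3 fell, where 6.31% of all genes fell. Icam2, an adhesion molecule of endothelial cells, averaged 25.7 scaled TPM in C57 and 15.3, 17 and 15.5 in aged, aged western-diet and adult western-diet Hap-I hearts. It fell in each of the 3 groups against C57, by 0.71, 0.58 and 0.70 on the log2 scale (adjusted p = 0.00766, 0.00826 and 0.0156). Cldn15, another claudin gene, fell by 0.56, 0.58 and 0.63 in the same groups. Jam3 and F11r fell in aged western-diet Hap-I by 0.58 and 0.56. With no scaling of the TPM, the list held 0 genes lower in aged or aged western-diet Hap-I and 1 in adult western-diet Hap-I. Omission of single hearts gave 1 to 2 in aged Hap-I (1 without C57 replicate 1 or 3, or aged Hap-I replicate 1 or 4) and 2 to 4 in aged western-diet Hap-I (2 without C57 replicate 3). It gave 0 to 3 in adult western-diet Hap-I, with 0 without C57 replicate 1 or 3, 1 without adult western-diet replicate 2, 3 or 4, and 3 without adult western-diet replicate 1 or aged western-diet replicate 5. In the mean of the Hap-I groups it gave 1 to 4, with 1 without C57 replicate 1 and 2 without C57 replicate 3.

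Several capillary markers fell in Hap-I hearts against C57. Of 10 markers, 5 fell in aged Hap-I against C57, where 4.06% of all genes fell, 5 in aged western-diet Hap-I (9.57% of all genes), 1 in adult western-diet Hap-I (1.5%) and 6 in the mean of the Hap-I groups (6.31%). Ly6c1, a surface marker of endothelial cells, was at 223 scaled TPM in C57 and 108 in aged Hap-I hearts (-1.04 ± 0.17 on the log2 scale, adjusted p = 0.00286). Car4, a carbonic anhydrase of the capillary surface, went from 17.4 to 9.75 (-0.77 ± 0.15, adjusted p = 0.00763). Gpihbp1, which carries lipoprotein lipase to the capillary lumen, went from 96.2 to 59.9 (-0.67 ± 0.13, adjusted p = 0.00632), and Fabp4, a fatty acid carrier, from 736 to 437 (-0.75 ± 0.21, adjusted p = 0.0309). The fifth was Rgcc, named after its values were seen. In adult western-diet Hap-I the gene that fell was Ly6c1, by 0.67 ± 0.17 (adjusted p = 0.0387).

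In the mean of the Hap-I groups these 5 and Aqp1, a water channel gene, fell. The median log2 difference of the list was -0.66 in aged Hap-I, against -0.17 for the 10 junction and identity genes and -0.01 for all genes. In adult western-diet Hap-I the medians were -0.36 and -0.46, and in aged western-diet Hap-I -0.46 and -0.36. The counts varied with the settings: from 2 to 6 in aged Hap-I, from 0 to 6 in aged western-diet Hap-I and from 0 to 4 in adult western-diet Hap-I over 19 alternatives. Omission of single hearts gave 3 to 5 in aged Hap-I and 0 to 6 in aged western-diet Hap-I, where C57 replicate 3 left 0 and C57 replicate 2 left 1 when omitted. There, aged western-diet replicate 3 left 2 and replicate 1 left 3. In aged Hap-I 3 were left without any 1 of the C57 hearts or aged Hap-I replicate 1, 3 or 4. The mean of the Hap-I groups gave 2 to 6 over alternatives and 1 to 6 over omissions, with 1 without C57 replicate 3 and 3 without C57 replicate 1 or 2. Adult western-diet Hap-I gave 0 to 2 over omissions, with 0 without any 1 of the C57 hearts, aged Hap-I replicate 1, 2 or 4, or adult western-diet replicate 3, and 2 without aged western-diet replicate 4. A covariate of atrial markers also left 0 in aged western-diet Hap-I. Atrial markers summed to 236 to 6800 scaled TPM in C57, 100 to 5140 in aged Hap-I, 91 to 205 in aged western-diet Hap-I and 40.1 to 1190 in adult western-diet Hap-I hearts.

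**Figure D5:**
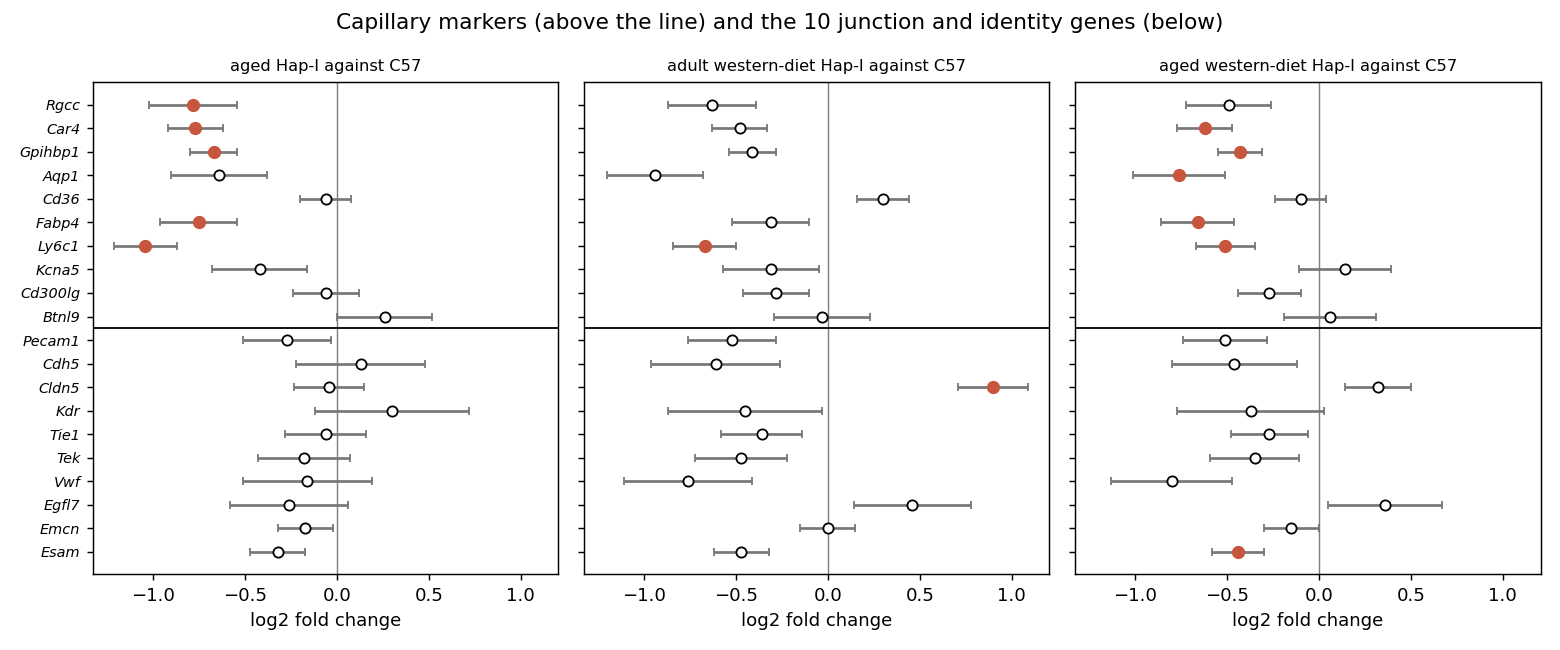
Log2 fold changes against C57 (x axes) of 10 capillary markers and of the 10 junction and identity genes (y axis, above and below the line) in aged, adult western-diet and aged western-diet Hap-I hearts; bars are standard errors and filled points passed an adjusted p of 0.05. In aged Hap-I, 5 capillary markers are filled, from Ly6c1 at -1.04 to Gpihbp1 at -0.67, and 0 of the 10 junction and identity genes.

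Calls among other endothelial genes are given beside the shares of all genes. Of 18 further pan-endothelial genes, 3 fell in aged Hap-I against C57, where 4.06% of all genes fell: S1pr1, the receptor for sphingosine-1-phosphate (-0.70 ± 0.19, adjusted p = 0.0264), Robo4 (-0.50 ± 0.15, adjusted p = 0.0418) and Gimap4 (-0.47 ± 0.14, adjusted p = 0.0454). In aged western-diet Hap-I 1 fell, where 9.57% of all genes fell. It was Plvap, which encodes a protein of endothelial diaphragms (-1.06 ± 0.27, adjusted p = 0.0117). In adult western-diet Hap-I 0 of the 18 passed by limma, where 3.45% of all genes were called. There 8 had an unadjusted p under 0.05, as did 20.4% of all genes. Of 14 endothelial transcription factor genes, 1 passed, Klf2, a gene induced by blood flow. Klf2 was at 11.5 scaled TPM in aged Hap-I hearts, against 19.9 in C57, 19.5 in aged western-diet and 20.8 in adult western-diet Hap-I hearts. It was lower in aged Hap-I than in C57 (-0.71 ± 0.21, adjusted p = 0.0375), where 4.06% of all genes fell. It was also lower than in adult western-diet Hap-I (-0.81 ± 0.19, adjusted p = 0.0426), where 2.14% of all genes were called in either direction. Of 8 arterial markers, 3 fell in aged western-diet Hap-I against C57, where 9.57% of all genes fell: Gja4 (-0.69 ± 0.13, adjusted p = 0.00278), Gja5 (-1.23 ± 0.38, adjusted p = 0.0301) and Sema3g (-0.87 ± 0.29, adjusted p = 0.0417). Of 7 atrial cardiomyocyte markers 5 fell in the same comparison, and Gja5 ranged from 1.08 to 11.8 scaled TPM over the hearts. The part of atrial tissue in these arterial calls was not tested.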

How the data were processed

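Per the labels' protocols, RNA was extracted from hearts with a Qiagen kit and polyadenylated RNA went into stranded TruSeq libraries. The authors deposited 1 table of TPM per gene. The tools named, per the submitters' processing notes, are kallisto and DESeq2, without versions, with build GRCm38. TPM keep no depth, so counting error is unknown; columns summed to 942090 to 959772 TPM. The 10 genes and all lists (7 of pathway partners, 15 of cell type markers) were chosen with earlier results of these data known. Genes reaching 1 TPM in 3 or more libraries were kept, and each library was scaled by a median-of-ratios size factor (0.678 to 1.231) from those above 0 in every library. One limma model (limma 3.58.1, R 4.3.3) of log2(scaled TPM + 1) with 4 group means, a variance trend and Benjamini-Hochberg adjustment over 11415 genes gave 7 contrasts and an F test, two-sided, called at an adjusted p under 0.05. The design text counts animals per group, the labels link no heart to an animal, and p-values measure the spread between these samples. Replicates are numbered by accession order and are only names. Named were all 10 genes, the 8 genes most like their mean, and up to 4 genes of smallest p per list; a few of these are not reported here. Locations and overlaps come from GENCODE M21. The code was tested on simulated data. Alternatives were other scalings, pseudocounts, filters, variance models, covariates and omission of each library.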

Additional observations from a re-analysis of the deposited data

Results flagged for a closer look

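Vwf in aged western-diet Hap-I replicate 1 stood at 18.9 scaled TPM, while the other 4 hearts of its group lay between 5 and 8.59. The gap to the nearest heart was 0.742 of the group's range, past the 95% limit of Dixon's test. Of 30 combinations of gene and group tested this way it was the only one; chance passes about 1 in 20. Without this heart, Vwf fell in aged western-diet Hap-I against C57 by 1.07 on the log2 scale (adjusted p = 0.0135 with limma), a comparison it did not pass with all hearts (-0.80, adjusted p = 0.1).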

How the results depend on the processing

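With all libraries and settings as reported, 0, 0, 1, 0, 1, 1 and 1 of the 10 genes were called in the 7 comparisons (diet; age; aged against adult western-diet Hap-I; aged, adult western-diet, aged western-diet and all Hap-I against C57) and 1 in the F test. In aged against adult western-diet Hap-I, here and below, the aged hearts are those without the diet. The count for diet was 0 under all 19 alternatives and all 16 omissions. Library weights gave 1 for age and 5 for aged against adult western-diet Hap-I. Against C57 they gave 5, 3 and 3 for adult western-diet, aged western-diet and all Hap-I. In the F test they gave 7. With these weights the share of all genes called went from 2.14% to 26.7% for aged against adult western-diet Hap-I. For adult western-diet Hap-I against C57 it went from 3.45% to 21.4%. For the remaining weighted counts, the F test included, this share is not given here. Those counts therefore cannot set the 10 genes apart. A model of only the groups compared gave 2 for aged Hap-I against C57 and 0 for adult and aged western-diet Hap-I against C57. The 4 comparisons with 1 call each gave 0 without scaling, with the Y-linked covariate, at an adjusted p of 0.01, with TPM rescaled without mitochondrial transcripts, and without the 2 libraries with size factors under 0.8. The F test gave 0 without scaling and in the 11 libraries with Y-linked transcripts. With those 11 libraries the 1 call in aged western-diet Hap-I against C57 was Vwf (-1.15, adjusted p = 0.0491). The western-diet hearts among them are only aged replicates 4 and 5 and adult replicates 3 and 4. Aged replicate 1, high in Vwf, is left out there. The subset of 11 libraries also gave 0 for aged against adult western-diet Hap-I and for adult western-diet and all Hap-I against C57. Length correction with the Y-linked covariate gave 0 for aged against adult western-diet Hap-I and for aged western-diet and all Hap-I against C57. Quantile normalization, no filter and the atrial covariate gave 0 for these last 2. With length correction alone their single calls were Vwf (-1.04, adjusted p = 0.0245) and Cldn5 (0.51, adjusted p = 0.0389) in place of Esam. Omitting 1 heart gave 0 to 1 for age, 0 to 2 for aged against adult western-diet Hap-I, 0 to 0 for aged Hap-I, 0 to 2 for adult western-diet, 0 to 2 for aged western-diet and 0 to 1 for all Hap-I against C57, and 1 to 2 in the F test. Without scaling, the median of all genes shifted by -0.16, 0.11, 0.27, 0.13, -0.13, -0.03 and -0.01. No call changed direction; other causes of these changes were not tested. The added alternatives (11 libraries, 2 libraries left out, rescaling without size factors, length with the covariate) were chosen after the data were seen. No paired analysis was possible because the labels give no replicate numbers shared between groups. Sequencing depth was not known, so precision rests on 3 to 5 hearts a group, and on fewer in the subsets.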

Other observations

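Genes of neighbouring cell types differed from C57 beside the endothelial genes. Prox1, a transcription factor of lymphatic endothelium that cardiac muscle also expresses, averaged 3.07 scaled TPM in C57 and 7.16, 6.73 and 6.55 in aged, aged western-diet and adult western-diet Hap-I hearts. It rose against C57 in each of the 3 groups (log2 differences of 1.00, 0.92 and 0.89, adjusted p = 0.000987, 0.00041 and 0.00256 with limma), as 1 of 7 lymphatic markers. In the same order of groups, 11.2%, 21.9% and 3.45% of all genes were called against C57. The median log2 difference of the 7 lymphatic markers was -0.2, -0.21 and -0.14. Ccl21a, a lymphatic chemokine gene, fell in aged Hap-I (-0.70, adjusted p = 0.0123) and aged western-diet Hap-I (-0.48, adjusted p = 0.0312). Of 10 pericyte and smooth muscle markers, 4 fell in aged western-diet Hap-I against C57, where 9.57% of all genes fell, and 2 fell with diet in aged Hap-I, where 0.166% of all genes were called: Myh11, the smooth muscle myosin gene (-1.02, adjusted p = 0.0311), and Myl9 (-0.98, adjusted p = 0.0429). Of 9 fibroblast markers, 2 fell in aged western-diet Hap-I against C57 (9.57% of all genes), Dcn (-0.62, adjusted p = 0.00533) and Dpt (-0.55, adjusted p = 0.0079). Dpt also fell in aged Hap-I (-0.50, adjusted p = 0.0263). Of 9 macrophage markers 0 passed by limma in any comparison, and 4 had an unadjusted p under 0.05 in at least 1. In single comparisons 15.9% to 35.5% of all genes had an unadjusted p under 0.05.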
